A study of Gallus gallus with 3 samples.

Results

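Blood vessel endothelium, the cell layer that lines vessels, was described here in the forelimb field of the chicken embryo, the region that gives rise to the wing. The class holds the cells that the authors' annotation names Blood vessels at its first level and leaves without a finer class name, and these are 143 of 3262 annotated cells. Of them, 73 came from stage HH10, 40 from HH14 and 30 from HH18. HH numbers are Hamburger-Hamilton stages, which are read from the external anatomy of the chick. The embryos were wild type and untreated, and each stage was 1 single-cell library of dissected tissue pooled from male and female embryos, at embryonic day 1.5, 2.5 and 3.5. No stage had a second library, and cells of a pool are not separate animals, so no test between stages or between the class and other cells was made. The class was drawn by the authors from the same gene counts that are described below, and its levels are therefore a description of the annotated cells.

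Endothelial cells arise from mesoderm as angioblasts, which need the VEGF receptor KDR and transcription factors of the ETS, SOX and TAL1/LMO2 families. They join through the cadherin CDH5 into a plexus of tubes, and Notch, BMP, angiopoietin and G protein signals then set arteries apart from veins and steady the vessel wall. In the limb field the plexus comes before the bud, and in the early embryo a small share of endothelium also buds off blood cells, a step that needs RUNX1.

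Blood vessel cells made up 6.03% of the cells at HH10 (interval 4.76 to 7.53). Their share was 3.05% in the HH14 library (2.19 to 4.13) and 4.06% in the HH18 library (2.76 to 5.74). All intervals in parentheses are exact 95% intervals for counting error, and they hold no spread between embryos. The extent of the dissection at each stage can set these shares too and cannot be told apart from them. The class carried 597366, 237184 and 174432 UMIs (unique molecular identifiers, so that each transcript caught is tallied once) at HH10, HH14 and HH18, and all other cells of the same libraries carried 11257889, 11030695 and 6383095. Its median cell held 5562, 3551 and 3545.5 UMIs, below the medians of 7893, 6745 and 6181 in the other cells. Cell barcodes were shared by 1 cell of HH10 and HH14 and by 0 cells of the other pairs of libraries. A doublet caller marked 2, 5 and 0 cells, of which 1, at HH14, lay in the class.

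The label was set beside 5 markers. These were CDH5, the cadherin of endothelial junctions, MMRN1, a multimerin secreted by endothelium and platelets, and KLHL4, a kelch-like protein. The others were STAB2, a scavenger receptor, and NOS3, the endothelial nitric oxide synthase. At least 1 of the 5 was detected in 62 of 73 cells at HH10, 37 of 40 at HH14 and 28 of 30 at HH18. Among all other cells this was true of 31 of 1137, 13 of 1273 and 8 of 709, although those cells held more UMIs at the median. The markers thus stood with the label in each library. Since the class was drawn from the same counts, this describes the label and is no test of it. The 11, 3 and 2 class cells with none of the 5 held a median of 3112 UMIs at HH10, 2071 at HH14 and 2962.5 at HH18, below the class medians.

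**Figure D1:**
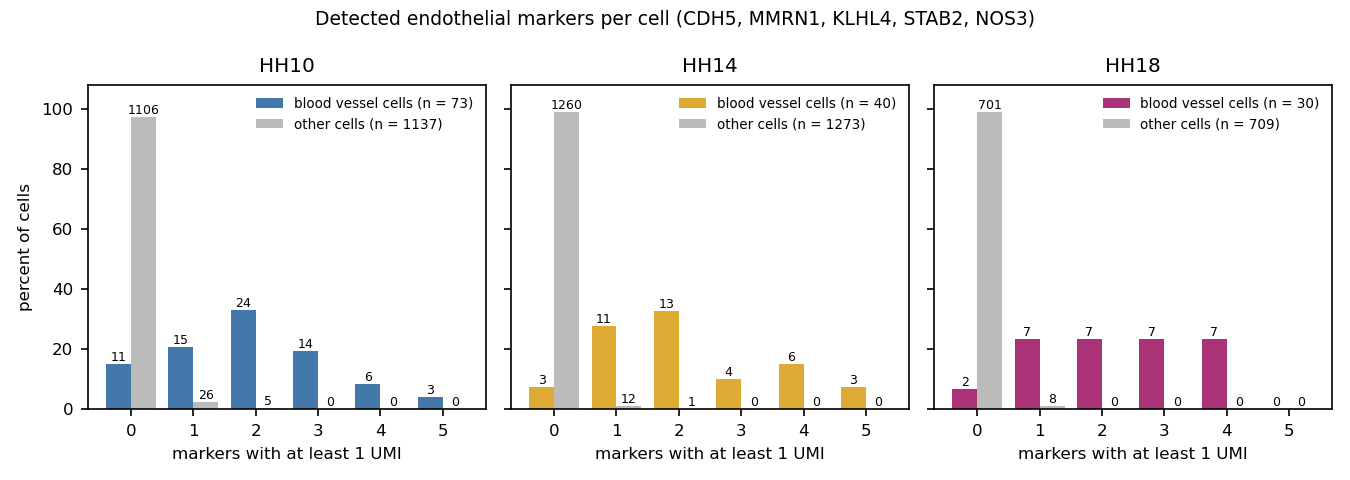
Percent of cells (y axis) with 0 to 5 of the 5 endothelial markers detected (x axis), in class cells and in all other cells of each library, with cell counts over the bars. Most class cells carry 1 or more markers, and 1106 of 1137, 1260 of 1273 and 701 of 709 other cells carry 0.

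CDH5 stood at 616 CPM (the gene's share of all UMIs of the summed cells, in parts per 1000000) at HH10 (555 to 682), 957 CPM at HH14 (837 to 1090) and 745 CPM at HH18 (623 to 885). In the other cells it stood at 3.64, 1.18 and 0.783 CPM. The HH14 class was thus the highest of the 3, and no class interval came near the level of other cells. A UMI of CDH5 was found in 61 of 73, 35 of 40 and 24 of 30 class cells and in 21 of 1137, 8 of 1273 and 5 of 709 other cells. These other cells give the background for every gene below, since free RNA can put a UMI into a cell that does not express the gene. After thinning each cell to 2300 UMIs, which leaves out 3, 7 and 3 class cells, CDH5 was found in 70.0%, 78.8% and 81.5% of class cells and in 0.733%, 0.331% and 0.311% of other cells.

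Some cells outside the class carried 2 or more of the markers. At HH10 these were 4 cells annotated as Primitive streak and 1 as low count cells, at HH14 1 annotated as Intermediate MES, and at HH18 0 of 709, which allows a share of up to 0.423%. The 29 Primitive streak cells held 28 UMIs of CDH5 in 10 cells, and 17 of these UMIs lay in the 4 cells with 2 markers. Of these 4, the deepest cell held 66181 UMIs, against a median of 4631 in its class. The Primitive streak class, at 120 CPM, was second to blood vessels in CDH5 at HH10. Its other CDH5 UMIs lay in cells with fewer than 2 markers, and its rank without the 4 cells was not tested.

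Red blood cells were annotated apart from the class at HH14 and HH18, as 19 and 4 cells with haemoglobin at 437756 and 591384 CPM. A further 1, 4 and 3 cells, outside the red blood cells, carried the first-level name Blood vessels and a finer name. In these cells 0 of the 5 markers was detected. Haemoglobin genes gave 0 UMIs in that cell at HH10, and 109620 and 41971 CPM in those at HH14 and HH18. In the class, haemoglobin stood at 31.8, 569 and 1187 CPM. It stood at 55.9, 566 and 850 CPM in other cells without red blood cells and without these finer-named cells. Haemoglobin in the class was thus below, level with and above that of the other cells at successive stages. At HH10, however, 321 of the 629 haemoglobin UMIs of those other cells lay in 1 cell, so the order there depends on that cell. The part of haemoglobin in the results was not tested. RUNX1, needed for blood to bud from endothelium, and SPI1, a factor of myeloid cells, were at 0 UMIs in the class in each library, which allows up to 5.02, 12.6 and 17.2 CPM. Summed over 6 mural cell markers, of which 5 are in the tables, the class held 1, 1 and 3 UMIs, with RGS5, CNN1 and MYH11 at 0 in each library.

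Against all other cells of the library, 845 of 9495 measured genes (8.9%) were 2-fold or more higher in blood vessels at HH10 and 1312 (13.8%) 2-fold or more lower. A gene is measured here with 30 or more UMIs in both sums together, and 2-fold describes size only. At HH14 the counts were 1225 (12.7%) and 2148 (22.2%) of 9677, and at HH18 1003 (11.3%) and 2100 (23.6%) of 8897. Many of the lower genes are sparse in the small class, so lists below count genes past 2-fold whose interval also leaves out 1. By that rule 691 genes (7.28%) were higher and 544 (5.73%) lower at HH10, 775 (8.01%) and 529 (5.47%) at HH14, and 596 (6.7%) and 479 (5.38%) at HH18.

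Some genes stood far above the other cells at every stage. Of 8621 genes measured in all 3 comparisons, 284 were at least 2-fold higher in each library and 35 (0.406%) at least 16-fold, 30 of the latter with a symbol. The 35 moved with the minimum count and with thinning. It was 4 with a minimum of 100 UMIs, 69 with a minimum of 10 and 82 with no minimum, and 5 in thinned cells. Taken library by library, 16-fold was reached by 0.716% of measured genes at HH10, 0.878% at HH14 and 0.776% at HH18. Ordered by the lowest of their interval bounds, these begin with CDH5, KLHL4, the homeobox gene HHEX, the divergent kinase gene DIPK2B, LMO2, SOX18, the semaphorin receptor PLXND1, the endosialin gene CD248 and TFPI, an inhibitor of coagulation. KLHL4 stood at 152, 131 and 275 CPM at HH10, HH14 and HH18 and at 0.622, 0.0907 and 0 CPM in the other cells. At HH18 that is at least 585-fold higher, taking 3 counts for the 0. TFPI stood at 181, 363 and 304 CPM, and was 113, 76.9 and 92.4-fold above the other cells.

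**Figure D2:**
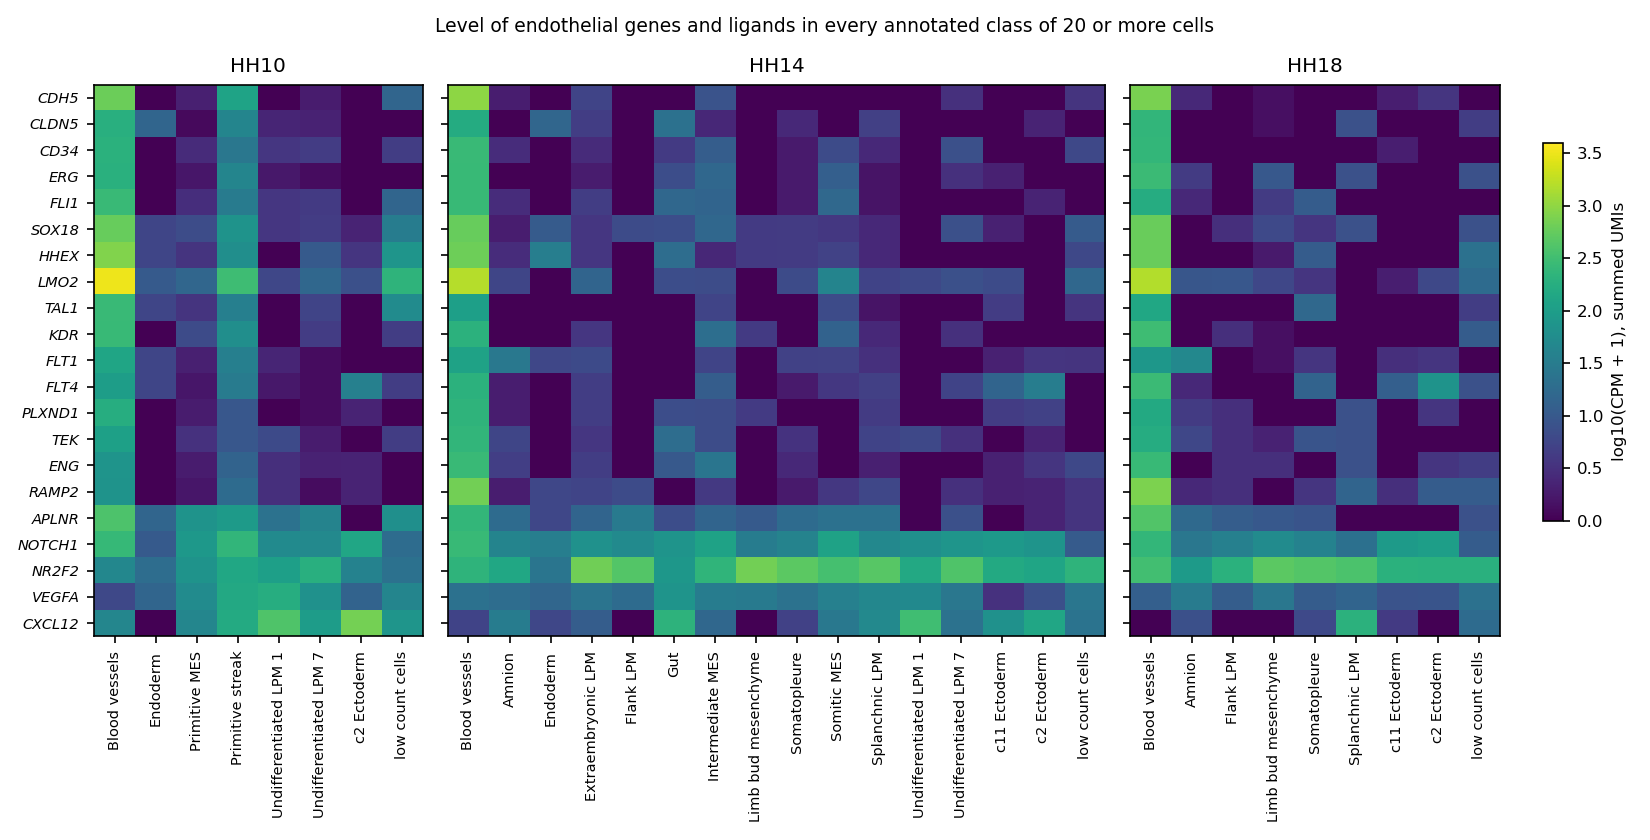
Level of 21 genes (rows, colour on a log10 scale of CPM plus 1) in each annotated class of 20 or more cells (columns), for each library. The upper rows, endothelial genes such as CDH5, ERG and KDR, are bright in the blood vessel column and dimmer elsewhere. At HH10 the Primitive streak column holds the second highest level of CDH5 and ERG, at 120 and 42.9 CPM. NR2F2, VEGFA and CXCL12 are bright in other columns.

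Endothelial transcription factors were high at each stage. Of 16 measured members 13 were higher in the class at HH10, 13 of 16 at HH14 and 11 of 14 at HH18, and 0 were lower past the interval in the 3 libraries. Their median log2 difference from other cells was 4.32, 3.65 and 3.53, beside -0.07, -0.11 and -0.13 over all measured genes. LMO2, the bridging protein of the TAL1 complex, stood at 3244 CPM at HH10 (3101 to 3392), 1573 CPM at HH14 (1417 to 1741) and 1519 CPM at HH18 (1342 to 1714). LMO2 was thus 2.06-fold lower at HH14 than at HH10 (1.85 to 2.31), with no overlap of intervals, while the HH14 and HH18 levels overlapped. It was found in 72 of 73, 38 of 40 and 28 of 30 class cells.

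TAL1, the helix-loop-helix factor of blood and endothelial progenitors, stood at 276, 105 and 138 CPM. It was lower at HH14 than at HH10, by 2.62-fold (1.71 to 4.17), and the intervals of HH14 and HH18 overlapped. SOX18, an endothelial SOX factor, hardly differed, at 579, 578 and 602 CPM. SOX17, a related factor that in mouse endothelium marks arteries, stood at 41.9 CPM at HH10 (27.1 to 61.8), 177 CPM at HH14 (128 to 239) and 115 CPM at HH18 (70.0 to 177). At HH10 the endoderm class held more SOX17, 261 CPM, while at the later stages blood vessels were the highest class. The ETS factors ERG and FLI1 stood at 193, 270 and 281 CPM and at 271, 261 and 166 CPM. ETS1 was the least confined of the 3 ETS genes named, 14.6, 12.6 and 9.30-fold above the other cells.

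Receptors of the VEGF family, which guide vessel growth, were high in the class while their main ligand was not. KDR stood at 263, 207 and 304 CPM at HH10, HH14 and HH18, and was 55.8-fold (40.6 to 77.7), 76.0-fold (47.3 to 124) and 129-fold (71.8 to 247) above the other cells. FLT1, the decoy receptor, stood at 129, 118 and 80.3 CPM and FLT4, the receptor for VEGFC, at 100, 207 and 281 CPM. FLT4 was thus lowest at HH10, and its intervals at HH14 and HH18 overlapped. With PLXND1 they make 4 of 6 members higher at HH10, and with the co-receptor NRP1 5 of 6 at HH14 and at HH18.

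NRP1 parted from the other receptors at HH10. It stood at 259 CPM in the class and 183 CPM in other cells there, with 634 CPM in Primitive streak cells, and so did not reach 2-fold. At HH14 the levels were 194 and 39.5 CPM, and at HH18 91.7 and 11.7 CPM. Both the class and the other cells held the least of it at HH18. VEGFA had 3, 5 and 2 UMIs in the class. At HH10 it stood at 5.02 CPM there, the lowest of the 8 classes, and at 172 CPM in the highest, a lateral plate class named Undifferentiated LPM 1. Only at HH10 was VEGFA counted as 2-fold lower than in other cells.

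TEK, the receptor of angiopoietins, stood at 110 CPM at HH10 (85.4 to 141), 236 CPM at HH14 (178 to 307) and 166 CPM at HH18 (111 to 239). TIE1, its co-receptor, stood at 40.2, 122 and 97.5 CPM. Both were lowest at HH10 and highest at HH14, with overlapping intervals at the later stages. TEK was 51.8, 81.4 and 96.5-fold above the other cells.

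Junction and adhesion genes were higher in 6 of 9, 6 of 8 and 5 of 7 measured cases at HH10, HH14 and HH18, and the single lower one was JAM3, a junctional adhesion molecule, at 17.2 CPM against 53.3 CPM in other cells at HH18. The tight junction gene CLDN5 stood at 184, 164 and 235 CPM and the surface sialomucin CD34 at 201, 274 and 241 CPM, with overlapping intervals between neighbouring stages. PECAM1, a homophilic adhesion molecule, stood at 43.5 CPM at HH10 (28.4 to 63.8), 181 CPM at HH14 (131 to 244) and 241 CPM at HH18 (174 to 325). PECAM1 was thus apart from CDH5 and CLDN5 in being 4.17-fold higher at HH14 than at HH10 (2.50 to 7.06).

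Scavenger receptors that in adults are known from sinusoidal and lymphatic endothelium were already present. STAB2 stood at 92.1, 110 and 109 CPM and the mannose receptor MRC1 at 80.4, 67.5 and 68.8 CPM, level across the stages. STAB1 stood at 67.0, 160 and 229 CPM and was lowest at HH10, although in thinned cells its log2 difference of HH14 from HH10 was -0.14. MMRN1 stood at 23.4 CPM at HH10 (12.8 to 39.3), 143 CPM at HH14 (99.3 to 200) and 172 CPM at HH18 (116 to 246). LYVE1, a hyaluronan receptor, had 1, 7 and 16 UMIs, in 1, 4 and 11 cells. PROX1, the factor that specifies lymphatic endothelium, had 0, 0 and 1 UMIs, so at this depth it was not detectable above 5.02 CPM at HH10 and 12.6 CPM at HH14. NOS3, the last of the 5 markers, stood at 25.1 CPM at HH10 (14.1 to 41.4), 71.7 CPM at HH14 (41.8 to 115) and 80.3 CPM at HH18 (43.9 to 135), with 0.355, 0.0907 and 0.157 CPM in other cells. MMRN1 and LYVE1 were found together in 5 of 30 cells at HH18.

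Notch genes were mixed. Of 15, 17 and 13 measured arterial and Notch genes, 7, 9 and 5 were higher in the class and 3, 2 and 3 lower, at medians of 0.98, 1.02 and 0.55. The receptor NOTCH1 stood at 258, 270 and 241 CPM, 3.54, 4.24 and 4.29-fold above other cells. NOTCH2, by contrast, had 3, 0 and 0 UMIs in the class and stood at 21.2, 26.2 and 33.1 CPM in the other cells. LFNG, a glycosyltransferase that modifies Notch, stood at 281, 261 and 126 CPM and was lowest at HH18. NRARP, a feedback inhibitor of Notch, stood at 189, 97.0 and 34.4 CPM, with the same order of stages. NRARP in the other cells followed that order too, at 95.6, 48.0 and 23.5 CPM. The ligand DLL4 was sparse, with 5, 4 and 6 UMIs.

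The arterial gap junction gene GJA5 stood out at HH14. It stood at 16.7 CPM at HH10 (8.03 to 30.8), 228 CPM at HH14 (171 to 297) and 40.1 CPM at HH18 (16.1 to 82.7), 13.6-fold higher at HH14 than at HH10 (6.86 to 29.96). Only the HH14 interval was apart from the others. The UMIs came from 8, 11 and 2 cells, and at HH18 71.4% of them lay in 1 cell. The related GJA4 was also highest at HH14, at 11.7, 54.8 and 5.73 CPM. After thinning, GJA5 was found in 7.14%, 24.2% and 7.41% of class cells, and in 0%, 0.0827% and 0.311% of other cells.

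Venous genes gave a different picture. Of 6 measured members APLNR and FLT4 were higher in the class at each stage and 2, 1 and 2 were lower, and the list medians were -0.27, -0.67 and 0.23 on the log2 scale. NR2F1, a nuclear receptor related to NR2F2, was lower at each stage, with 0, 3 and 0 UMIs in the class against 19.0, 127 and 98.7 CPM in other cells. NR2F2, the nuclear receptor that sets venous identity in mouse, was no marker of the class here, because mesenchyme held it too. It stood at 45.2, 215 and 321 CPM in the class and at 113, 332 and 350 CPM in other cells. The class was lower than other cells at HH10, by 2.50-fold (1.71 to 3.81), and the interval of the ratio included 1 at HH18. Within the class the HH14 level was 4.76-fold that of HH10 (2.93 to 7.89). GJA5 and NR2F2 were detected in the same cell in 0 of 73, 5 of 40 and 0 of 30 cells. With cells this shallow, the absence of a UMI in a cell is not read as absence of the transcript.

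Among BMP and TGF-beta genes, 6 of 18, 5 of 17 and 4 of 16 were higher in the class and 2, 2 and 6 lower. The co-receptor ENG stood at 72.0 CPM at HH10 (52.1 to 97.0), 278 CPM at HH14 (215 to 354) and 269 CPM at HH18 (198 to 358), 45.02, 85.3 and 132-fold above other cells. The target ID1, an inhibitor of helix-loop-helix factors, stood at 534, 1783 and 1009 CPM, highest at HH14 with no overlap of intervals. In the other cells ID1 stood at 183, 382 and 534 CPM. ID4 had 47, 1 and 2 UMIs in the class, so it was higher than in other cells at HH10, by 2.03-fold (1.47 to 2.75), and lower at HH14 and HH18. The ligand BMP4 had 2, 0 and 0 UMIs and stood at 77.7, 63.6 and 92.3 CPM in the other cells.

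Among G protein signalling genes, RAMP2 differed most between HH10 and HH14. RAMP2, the partner that turns CALCRL into a receptor for adrenomedullin, stood at 68.6 CPM at HH10 (49.3 to 93.1), 691 CPM at HH14 (590 to 806) and 768 CPM at HH18 (644 to 910). The HH10 class was apart from both later ones, 10.1-fold below HH14 (7.12 to 14.6). CALCRL itself stood at 55.2, 105 and 51.6 CPM, so it did not share that step. RAMP2 was detected in 17.1%, 57.6% and 88.9% of class cells at 2300 UMIs per cell, and in 18 of 73, 29 of 40 and 27 of 30 without thinning. In other cells, without thinning, the shares were 1.06%, 2.12% and 1.69%.

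The apelin receptor APLNR stood at 393, 240 and 419 CPM, and its ligand APLN, which in mouse is made by sprouting tip cells, at 75.3 CPM at HH10 (54.9 to 101), 88.5 CPM at HH14 (54.8 to 135) and 573 CPM at HH18 (466 to 697). Within the class APLN was thus highest at HH18, and blood vessels were its highest class at each stage. Its UMIs there came from 14 of 30 cells, with 25 of its 100 UMIs in 1 cell. The sphingosine-1-phosphate receptor S1PR1 stood at 154, 126 and 178 CPM, with intervals that overlap at all 3 stages. Of 11 measured genes of this list 5, 7 and 6 were higher in the class and 1, 0 and 0 lower.

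Several genes of sprouting tip cells, such as PDGFB and CXCR4, were sparse in the class. Of 7, 8 and 4 measured members 3, 4 and 1 were higher and 1, 0 and 0 lower. PDGFB, the ligand that draws mural cells to vessels, had 19, 12 and 1 UMIs in the class, or 31.8, 50.6 and 5.73 CPM, beside 2.58, 3.35 and 2.04 CPM in other cells. KCNE3, a potassium channel subunit, stood at 23.4 CPM at HH10 (12.8 to 39.3), 105 CPM at HH14 (68.2 to 156) and 57.3 CPM at HH18 (27.5 to 105), with blood vessels its highest class at each stage. Only its HH10 and HH14 intervals were apart. Among chemokine and guidance genes the order was the other way, with 1, 2 and 1 of 12, 15 and 12 higher in the class and 6, 4 and 3 lower. EPHA2, an ephrin receptor, was higher at HH10 and HH14, at 16.7 and 46.4 CPM against 4.71 and 6.44 CPM. The semaphorin SEMA3D had 8, 1 and 2 UMIs in the class, and stood at 32.3, 57.3 and 52.3 CPM in other cells. Against lateral plate and limb classes alone the log2 difference of SEMA3D at HH18 was 3.03. That value rests on 2 class UMIs, is given no interval and is not read as enrichment. CXCR4, the receptor of CXCL12 and a member of both the tip cell and the guidance list, had 13, 9 and 2 UMIs. It was lower than in other cells at HH10 (21.8 against 46.0 CPM) and higher at HH14 (37.9 against 12.9 CPM). At HH14 the Intermediate MES class held more of it than blood vessels, at 68.3 CPM.

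Matrix genes of the vessel wall were higher in part. Of 14, 16 and 16 measured members 4, 8 and 5 were higher and 2, 1 and 1 lower. The basement membrane collagen COL4A1 stood at 95.4, 253 and 126 CPM and the proteoglycan HSPG2 at 55.2, 131 and 172 CPM. Blood vessels were the highest class for COL4A1 at HH14 only. An ectoderm class held 116 CPM at HH10, and the splanchnic lateral plate class held 141 CPM at HH18. EGFL7, a matrix protein secreted by endothelium, stood at 352, 278 and 292 CPM, at overlapping intervals. Fibronectin, FN1, went the other way, with 51, 5 and 4 UMIs in the class (85.4, 21.1 and 22.9 CPM) and 234, 255 and 288 CPM in the other cells. It was 12.1-fold lower than in other cells at HH14 (5.17 to 37.2). VWF, the clotting factor stored in endothelium, had 1, 16 and 10 UMIs in the class and 0, 0 and 3 in the other cells.

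Some genes of signalling inside the cell were lowest at HH10. The adaptor SHE stood at 124, 409 and 424 CPM and the phosphatase-like gene PALD1 at 298, 451 and 625 CPM, with no overlap of the HH10 and HH14 intervals of either. MSN, moesin, which ties membrane to actin, stood at 370, 447 and 441 CPM, 2.02, 2.73 and 2.75-fold above the other cells. Integrins showed fewer differences, with 4, 3 and 1 of 9 higher and 0, 1 and 2 lower.

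**Figure D3:**
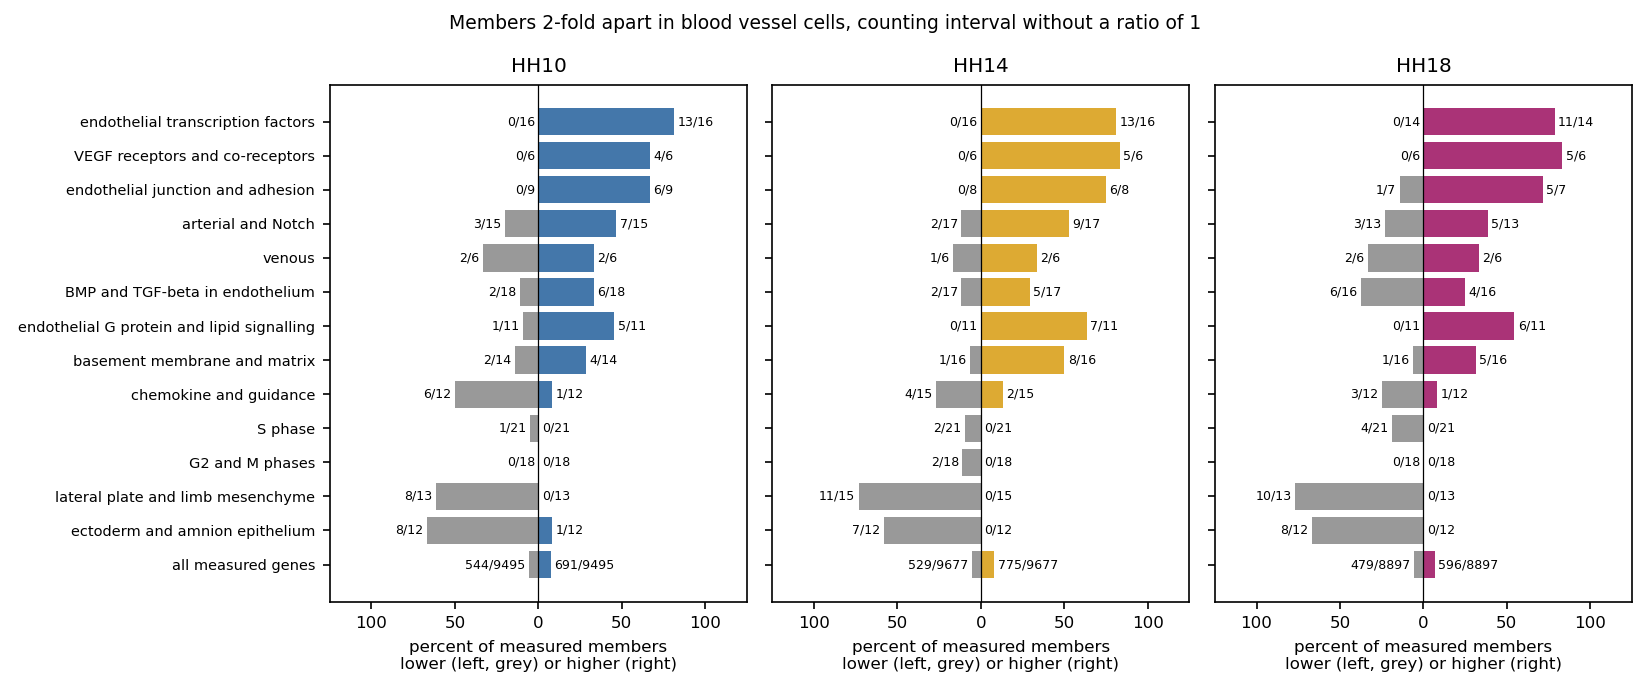
Percent of the measured members of 13 gene lists, and of all measured genes, that were 2-fold or more higher (right) or lower (left) in the class than in other cells of the library with an interval leaving out 1. Transcription factors and VEGF receptors lie far to the right at each stage, lateral plate and ectoderm lists to the left, and the S phase and the G2 and M lists hold 0 higher members at each stage.

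Genes of the neighbouring tissues were low in the class. Of 13, 15 and 13 measured lateral plate and limb mesenchyme genes 0 were higher and 8, 11 and 10 lower, at median log2 differences of -2.85, -4.88 and -4.57. With genes at 0 UMIs set to the bound that 3 counts give, and to no difference where that bound is above 1, these medians were -1.16, -1.75 and -2.92. PRRX1, the homeobox gene of limb mesenchyme, had 1, 3 and 9 UMIs in the class (1.67, 12.6 and 51.6 CPM) and stood at 241, 442 and 1226 CPM in other cells. Its level in the class followed the same order of stages as in the other cells, and was 23.8-fold below them at HH18 (12.5 to 52.0). HAND2, a factor of lateral plate, stood at 82.0, 12.6 and 5.73 CPM in the class and 665, 349 and 327 CPM in other cells. Ectoderm genes were lower in 8, 7 and 8 of 12 cases, and the single higher one was GATA3 at HH10, at 28.5 CPM against 2.49 CPM in other cells. The chemokine CXCL12 had 26, 1 and 0 UMIs in the class and stood at 154, 44.0 and 11.6 CPM in other cells.

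Cell cycle genes past 2-fold with their interval were all lower in the class, and few glycolysis genes were past it. S phase genes were higher in the class in 0 of 21 cases at each stage and lower in 1, 2 and 4. Genes of the G2 and M phases were higher in 0 of 18 and lower in 0, 2 and 0. Of all measured genes 7.28%, 8.01% and 6.7% were higher by that rule and 5.73%, 5.47% and 5.38% lower. The S phase medians were -0.30, -0.44 and -0.29 on the log2 scale and the G2 and M medians -0.22, -0.50 and -0.26. Over all measured genes they were -0.07, -0.11 and -0.13. By the authors' phase calls, 27.4% of class cells were in S phase at HH10 (17.6 to 39.1), as were 2 of 40 at HH14 (0.611% to 16.9%) and 6.67% at HH18 (0.818 to 22.1). Of the other cells 20.7%, 11.4% and 13.96% were. These calls also depend on depth, and no cycling rate is read from them. Glycolysis genes were higher in 0 of 14, 1 of 14 and 1 of 13 cases and lower in 0, the single higher ones being PFKL at HH14 (54.8 CPM against 23.8 CPM) and LDHA at HH18 (80.3 CPM against 37.8 CPM). Immediate early genes, which many stimuli induce within minutes, were listed together with stress genes such as HSPB1 and GADD45B. Members of this joint list were higher in 5, 4 and 3 of 13, 13 and 12 cases and lower in 1, 3 and 1. At HH14 the lower ones were ATF3, GADD45B and HSPB1, beside FOS, EGR1, KLF6 and DUSP1 as the higher ones. JUN stood at 335, 350 and 109 CPM in the class and at 23.3, 242 and 122 CPM in other cells, so it was set apart from the other cells at HH10.

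Between the stages, fewer genes of the class were measured and fewer passed 2-fold than between the class and other cells. The sums differ in size, so these counts are not like for like. With no minimum beyond 1 UMI in each sum, 1460 were higher and 848 lower of 8912 at HH14 over HH10. In the HH10 class over other cells these were 1778 and 956 of 10521. From HH10 to HH14, 189 of 3913 measured genes (4.83%) were 2-fold or more higher and 251 (6.41%) 2-fold or more lower, of which 178 (4.55%) and 190 (4.86%) had an interval leaving out 1. From HH14 to HH18 the counts were 61 (2.69%) and 58 (2.55%) of 2271, and 57 (2.51%) and 47 (2.07%) with the interval. From HH10 to HH18 they were 212 (5.68%) and 269 (7.21%) of 3731, and 195 (5.23%) and 175 (4.69%). The smaller class at HH18 allowed fewer genes to be measured, and pools, dissections and depth differ between the libraries along with stage and cannot be told apart from it.

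Genes ranked highest at HH14 over HH10 came from several families. CYP26B1, an enzyme that breaks down retinoic acid, stood at 16.7 CPM at HH10 (8.03 to 30.8), 232 CPM at HH14 (175 to 302) and 138 CPM at HH18 (88.2 to 205). In other cells it stood at 4.09, 3.54 and 5.17 CPM, and blood vessels were the highest class for CYP26B1 at each stage. OIT3, a gene known from liver, stood at 10.0, 228 and 178 CPM, and RARRES1, a gene named for its response to retinoids, at 30.1, 379 and 390 CPM. The levels of these genes at HH10 were thus well below both later stages. TFPI2, an inhibitor of serine proteases, stood at 98.8, 738 and 189 CPM, and FHL1, a LIM domain protein, at 8.37, 169 and 11.5 CPM. Both were highest at HH14. IGFBP7, an insulin-like growth factor binding protein of vessels, stood at 53.6, 282 and 315 CPM. The list of endothelial transcription factors had 1 of 14 members (7.14%) higher at HH14, SOX17, and 3 (21.4%) lower, TAL1, LMO2 and GATA2. Of all measured genes 4.83% were higher and 6.41% lower. The median log2 difference of the list was -0.03, beside -0.05 over all measured genes.

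**Figure D4:**
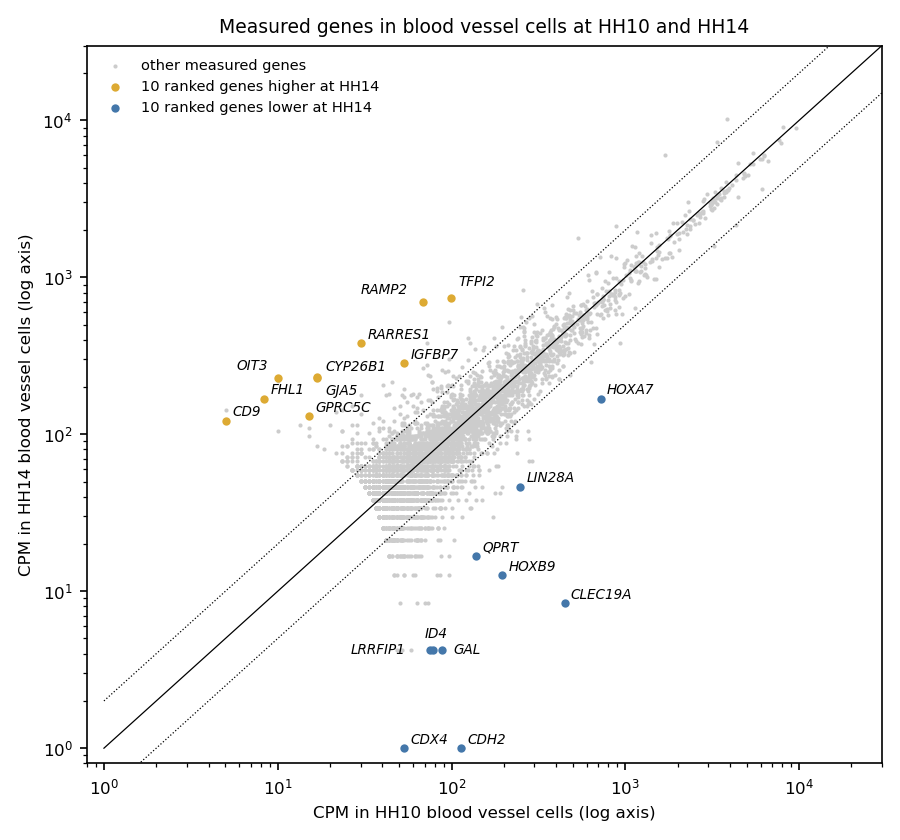
Level of each measured gene in blood vessel cells at HH10 (x axis) against HH14 (y axis), CPM on log scales, with the 10 highest and 10 lowest ranked genes named and dotted lines at 2-fold. OIT3, RAMP2 and TFPI2 lie above the lines and CLEC19A, HOXB9 and CDH2 below them, and genes with 0 UMIs are drawn at 1 CPM.

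Genes ranked highest at HH10 over HH14 or over HH18 were of several kinds. CLEC19A, a C-type lectin gene, had 267, 2 and 0 UMIs in the class at successive stages, or 447, 8.43 and 0 CPM, and stood at 287, 34.0 and 5.01 CPM in other cells. LIN28A, the RNA-binding protein that holds back let-7, stood at 248, 46.4 and 17.2 CPM, below the other cells at 470, 206 and 72.2 CPM. PRTG, protogenin, stood at 934, 379 and 155 CPM and at 1428, 963 and 296 CPM in other cells. All of these were highest at HH10 both in the class and outside it. CDH2, the N-cadherin gene, had 68, 0 and 1 UMIs in the class, at least 9-fold lower at HH14 than at HH10, and stood at 188, 141 and 89.8 CPM in other cells. GAL, a neuropeptide gene, had 53, 1 and 0 UMIs in the class and stood at 1.15, 1.63 and 0.313 CPM in other cells, with low count cells the next class at HH10, at 31.8 CPM.

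Of 37 HOX genes in the tables, 11 had 30 or more UMIs in the class. HOXA7 stood at 723 CPM at HH10 (657 to 795), 169 CPM at HH14 (120 to 230) and 86.0 CPM at HH18 (48.1 to 142), HOXB8 at 638, 287 and 195 CPM, and HOXB9 at 196, 12.6 and 5.73 CPM. All 3 were highest at HH10. HOXB5, an earlier member of its cluster, ran the other way, at 53.6, 126 and 138 CPM, HOXA9 was level, at 67.0, 71.7 and 63.1 CPM, and HOXB7 was lowest at HH14, at 151, 37.9 and 109 CPM. In other cells HOXA7 stood at 567, 133 and 196 CPM, HOXB8 at 690, 148 and 146 CPM and HOXB9 at 87.2, 34.3 and 42.8 CPM. These genes were thus highest at HH10 outside the class too. HOXB5 stood there at 99.5, 208 and 163 CPM, also lowest at HH10, and HOXB7 at 80.2, 48.2 and 69.4 CPM, also lowest at HH14. HOXA9 was not level there, at 44.9, 31.1 and 124 CPM. HOXB9 was 2.25-fold higher in the class than in other cells at HH10 (1.84 to 2.72) and 7.46-fold lower at HH18 (1.33 to 296).

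From HH14 to HH18 the ranked differences were led by APLN, 6.47-fold higher (4.02 to 10.9), and at the other end by FHL1, TFPI2 and GJA5. IL1RL1, a receptor for interleukin 33, had 0, 7 and 25 UMIs at the 3 stages, the last in 5 cells, and its log2 difference of HH18 from HH14 was -0.0073 among cells with 2 or more markers. CA2, a carbonic anhydrase, stood at 373, 405 and 1003 CPM and was highest at HH18. In G1 cells alone the log2 difference of CA2 between HH18 and HH10 was -0.18. From HH14 to HH18, 0 of 12 measured endothelial transcription factors passed 2-fold in either direction. Of all measured genes only 2.69% were higher and 2.55% lower. With 12 members, a count of 0 is near those shares and is not read as a trait of the list. TFPI2 was 3.90-fold lower at HH18 (2.68 to 5.84), GJA5 5.67-fold (2.57 to 14.8) and ID1 1.77-fold (1.48 to 2.12).

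Across the whole span from HH10 to HH18, TM4SF18, a tetraspanin-like membrane gene, stood at 8.37, 101 and 235 CPM, and the endocytic adaptor DAB2 at 6.70, 67.5 and 201 CPM. For both genes each stage was higher than the one before, with no overlap of intervals. ENPP2, the enzyme that makes lysophosphatidic acid, stood at 13.4, 71.7 and 138 CPM. Of 14 blood progenitor genes 4 were measured, and all 4 were 2-fold or more lower at HH18 than at HH10. Of all measured genes 7.21% were. The median log2 difference was -1.47, beside -0.03 over all measured genes. With its larger sum, the HH10 class lets genes high at HH10 pass the minimum count more readily, so this count is not read further. The 4 genes are TAL1 and LMO2, given above, GATA2, at 181, 63.2 and 34.4 CPM, and CBFB. CBFB, the partner of RUNX proteins, stood at 206, 110 and 57.3 CPM. TAL1, LMO2 and GATA2 are also the 3 lower members of the endothelial transcription factor list. NR6A1, an orphan receptor of early embryos, and RHOU stood at 290, 67.5 and 17.2 CPM and at 177, 42.2 and 5.73 CPM. RHOU in other cells held level, at 146, 143 and 130 CPM.

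**Figure D5:**
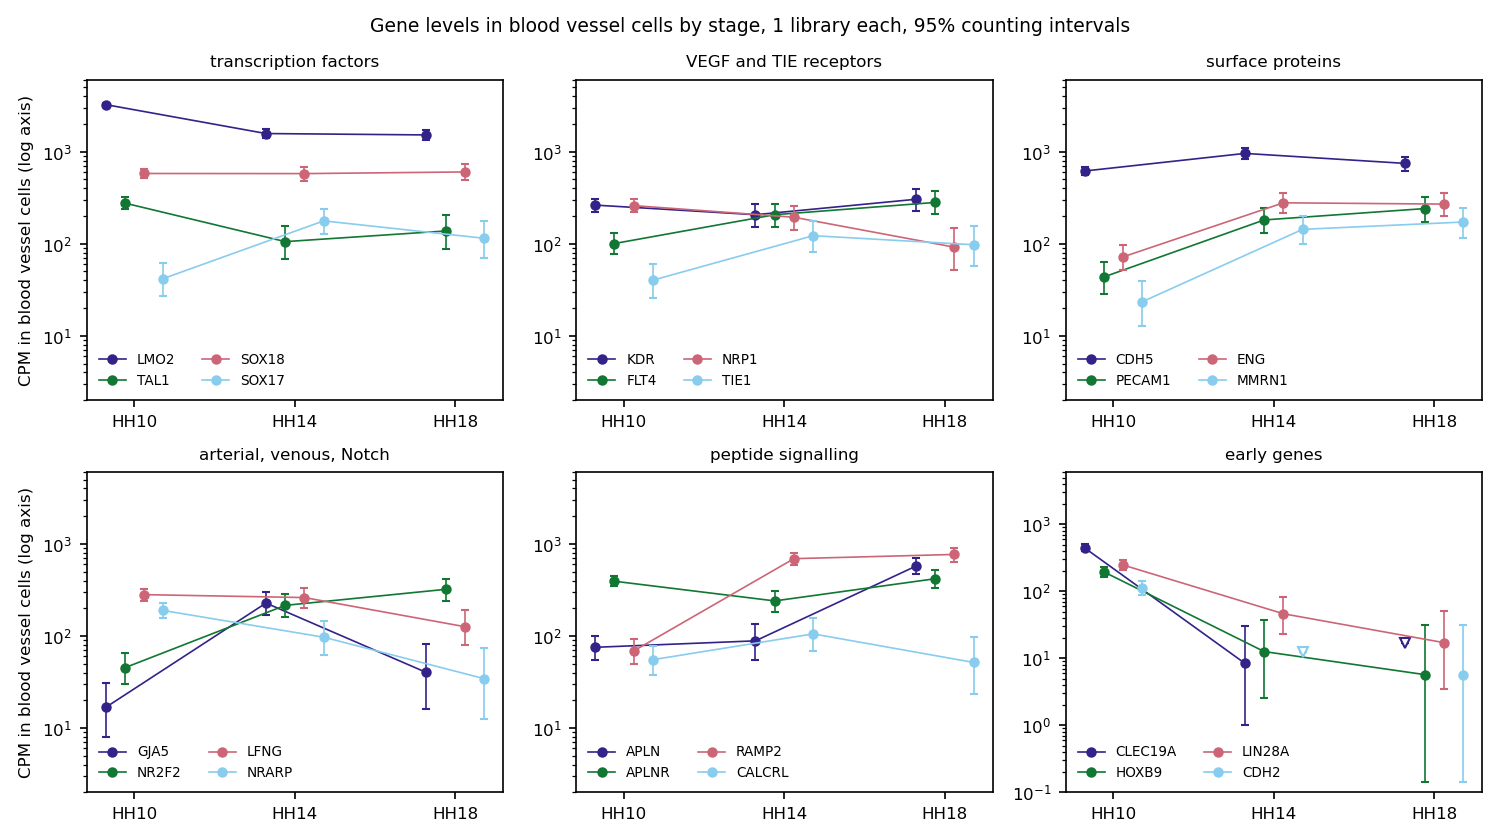
Class level in CPM (y axis, log scale) at HH10, HH14 and HH18 (x axis) of 24 genes in 6 panels, with exact intervals for counting error and open triangles for 0 UMIs, drawn at the level of 3 counts. RAMP2 is lowest at HH10, GJA5 is highest at HH14, APLN is highest at HH18, and SOX18 is level.

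Part of these stage differences was shared by the other cells. Of the 189 genes higher in the class at HH14 than at HH10, 46 (24.3%) were also 2-fold or more higher in the other cells, as were 2.35% of all measured genes. Of the 251 lower ones 25 (9.96%) were also lower there, beside 1.41% of all measured genes. From HH10 to HH18 the shares were 39 of 212 (18.4%) and 43 of 269 (15.99%), beside 2.65% and 2.31%. From HH14 to HH18 they were lower, 1 of 61 higher genes (1.64%) and 4 of 58 lower ones (6.90%), beside 0.661% and 1.37%. Some genes were 2-fold or more apart in the opposite direction in the other cells. From HH10 to HH14 these were 5 of the 189 higher genes and 2 of the 251 lower ones. From HH10 to HH18 they were 7 of 212 and 10 of 269. From HH14 to HH18 they were 3 of 61 and 0 of 58, so more of the 61 went the opposite way than the same way. RAMP2 is among the shared genes, since the other cells held 13 UMIs of it at HH10 and 29 at HH14, a 2.28-fold difference (1.15 to 4.77) beside the 10.1-fold one in the class. GJA5 had 0 and 4 UMIs in the other cells of HH10 and HH14. APLN, 6.47-fold higher in the class at HH18 than at HH14, stood at 3.72 and 2.98 CPM in the other cells of those libraries.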

How the data were processed

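The 3 libraries hold single-cell RNA of the forelimb field at HH10, HH14 and HH18, made with 10x Genomics 3' version 3.1 chemistry per the labels' protocols. The deposited matrices hold UMI counts of 16748 genes in the cells the authors kept. Cell Ranger 4.0.0 and the GRCg6a build are named in the submitters' processing notes, and other steps before deposit are not given in the sources used here. The authors' deposited annotation gives each cell a class at 2 levels, a phase call, total counts, and the percent of counts in mitochondrial and ribosomal genes. Of its columns 9 were not used. A symbol was given for 12430 genes, and the other 4318 are IDs, of which 0 were found in the RefSeq table.

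Counts were summed over class cells and over all other annotated cells of a library, and scaled to CPM with exact Poisson intervals. Ratios carry exact conditional binomial intervals and shares Clopper-Pearson intervals. All are at 95%, and they cover counting error only. A gene at 0 UMIs is given the limit that 3 counts allow. Shares were also computed after thinning each cell to 2300 UMIs. No cell was left out, and doublets, called with scanpy at an expected 2%, were left out only as an alternative. The label's replicate number is 1 in each library, and no p-value was computed. The steps were checked on simulated counts.

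Named genes are the 5 markers, members of 31 lists (366 of 441 genes are in the tables) and, in each comparison, the 10 highest and 10 lowest genes with a symbol, ranked by the interval bound nearest to 1. The counts of 1 list are not reported here. Haemoglobin, mitochondrial, ribosomal protein and W-linked genes, 94 in all, were left out of this rank. HOX genes, RHOU in other cells and the genes 16-fold higher in all 3 libraries were named after their values were seen. The class, lists and members were chosen with earlier results of these data known. Alternatives were other scalings, minimum counts, folds, references and cell subsets, 15 for the class against other cells. A count of promoter motifs was planned and not run. Python 3.11.15, numpy 2.4.6, scipy 1.17.1, pandas 2.3.3, scanpy 1.11.5 and matplotlib 3.10.9 were used.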

Additional observations from a re-analysis of the deposited data

Results flagged for a closer look

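A few genes were past 2-fold in opposite directions at different stages when the class was set against other cells of its library. With 1 library per stage, the difference between stages was not tested in any of these cases.

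ID4, an inhibitor of helix-loop-helix factors, was 2.03-fold the level of other cells at HH10, 0.0623-fold at HH14 and 0.238-fold at HH18, with 47, 1 and 2 UMIs in the class. HOXB9 was 2.25-fold the level of other cells at HH10 and 0.134-fold at HH18. CXCR4 was 0.473-fold at HH10 and 2.95-fold at HH14, where the Intermediate MES class held more of it than blood vessels. TCF15, a helix-loop-helix factor best known from somites, was 0.303-fold at HH10 and 2.93-fold at HH18, where it stood at 109 CPM in blood vessels (65.6 to 170) in 11 of 30 cells, and at 25.8 CPM in the next class. ARHGAP29 was 0.412-fold at HH10 and 2.36-fold at HH18, with 18 and 14 UMIs.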

How the results depend on the processing

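No paired analysis was possible because each stage has 1 library, and every library is labelled replicate 1. The counts of genes 2-fold higher and lower moved most with the minimum count, the fold and the depth per cell. With a minimum of 10 UMIs they were 1282 and 2022 at HH10 against other cells and 1515 higher at HH18, 581 and 733 for HH14 over HH10, 444 and 379 for HH18 over HH14, and 661 and 859 for HH18 over HH10. With 100 UMIs they were 422 and 693, 635 and 1313, and 416 and 1136 against other cells, and 39 and 36, 4 and 6, and 30 and 48 between stages. With no minimum they were 1778 higher at HH10, 2001 and 1014 at HH14 and 1810 and 1049 at HH18, and 1460 and 848, 1173 and 886, and 1481 and 857 between stages. At 4-fold they were 272 and 618, 394 and 1382, and 273 and 1328, and 34 and 37, 2 and 4, and 32 and 69. After thinning, 524, 772 and 516 were higher and 1334 lower at HH18, and 41 and 61, 14 and 8, and 49 and 79 differed between stages. With an interval leaving out 1, 544, 529 and 479 were lower against other cells, 775 and 596 higher at HH14 and HH18, and 175 lower at HH18 than at HH10. Against lateral plate and limb classes alone 798 were lower at HH10. With G1 cells alone 87 were lower at HH14 than at HH10, and 90 and 109 differed between HH10 and HH18. By the mean over cells 99 were higher at HH18 than at HH14. The 35 genes 16-fold higher in all 3 libraries were 69, 4 and 82 with minimum counts of 10, 100 and none, and 5 after thinning. Cells with 2 or more markers in any class made up 4.30% at HH10 and 2.06% at HH14. Smaller and thinned sums hold fewer measured genes, and other causes were not tested.

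Against lateral plate and limb classes alone, FABP3 at HH10 turned to 0.83 on the log2 scale and SEMA3D at HH18 to 3.03. Both values rest on few class UMIs and are given no interval. FHL1 at HH10 against other cells turned to -0.12 with equal weight to each class, STAB1 at HH14 over HH10 to -0.14, and LDHA and ARHGAP29 at HH18 over HH10 to -0.36 and -0.041 after thinning, IL1RL1 at HH18 over HH14 to -0.0073 with marker-positive cells, and CA2 at HH18 over HH10 to -0.18 in G1 cells. The cause was not tested. With 30 to 73 class cells per library, a gene at 0 UMIs is limited only to 5.02, 12.6 and 17.2 CPM, and no spread between embryos was measured.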

Other observations

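DES, the intermediate filament protein desmin known from muscle and mural cells, had 3, 20 and 19 UMIs in the class at HH10, HH14 and HH18, in 3, 9 and 11 cells. It stood at 5.02, 84.3 and 109 CPM there, against 1.69, 5.80 and 3.603 CPM in other cells, and blood vessels were its highest class at each stage. ANPEP, an aminopeptidase also known from pericytes, stood at 16.7, 59.0 and 80.3 CPM, 2.81, 6.32 and 11.6-fold above other cells. These members of the mural and smooth muscle list stood beside RGS5, CNN1 and MYH11 at 0 UMIs, and beside MYL9, a myosin light chain, which was lower than in other cells at 97.1, 304 and 224 CPM against 270, 606 and 402 CPM. In that list 1, 2 and 2 of 4, 8 and 9 measured genes were higher and 3, 2 and 2 lower.

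Genes of the early embryo were low in the class in part. Of 8, 8 and 6 measured members 0, 0 and 1 were higher and 3, 3 and 2 lower. CDX4, a caudal homeobox gene, had 32, 0 and 0 UMIs and stood at 358, 22.7 and 4.23 CPM in other cells. EVX1, an even-skipped homeobox gene, had 3, 0 and 0. Pou5f3, the chick relative of OCT4, stood at 164, 59.0 and 86.0 CPM in the class and 190, 31.9 and 27.1 CPM in other cells, and so was the higher one at HH18. Blood progenitor genes were higher in 4, 2 and 3 of 5, 5 and 6 cases and lower in 0 at each stage. MYB, one of them at HH10, had 10, 1 and 0 UMIs, and was 3.04-fold above other cells at HH10 (1.39 to 5.97).

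Fatty acid binding proteins stood out in the list of transport genes, of which 0, 0 and 1 of 9, 9 and 8 were higher and 2, 2 and 2 lower. FABP7 stood at 172, 29.5 and 28.7 CPM in the class and 238, 263 and 203 CPM in other cells. FABP3 had 8, 2 and 0 UMIs and stood at 100.1, 149 and 92.3 CPM in other cells. Against lateral plate and limb classes alone its log2 difference at HH10 was 0.83. That value is short of 2-fold, rests on 8 class UMIs and is given no interval. Somite genes were higher in 0, 0 and 1 of 7, 8 and 5 cases and lower in 4, 3 and 0. Endoderm genes were higher in 1, 1 and 0 of 6, 6 and 2 cases, SOX17 in both, and lower in 3, 2 and 1. Neural genes were higher in 1 of 4, 6 and 5 cases, ETS1 in each, and lower in 0, 1 and 1. Red cell genes were higher in 2, 1 and 1 of 7, 9 and 9 cases, with CA2 in each, and lower in 1, 5 and 4. The other cells here include the red blood cells at HH14 and HH18. Without those and the finer-named Blood vessels cells, summed haemoglobin was 569 CPM in the class against 566 CPM at HH14. At HH18 it was 1187 CPM against 850 CPM. Myeloid genes had 1 measured member at each stage, which was past 2-fold with its interval in 0 of them. VEGF ligands were higher in 0 of 2, 3 and 3 cases and lower in 1, 0 and 0, and angiopoietin and TIE genes higher in 1, 2 and 1 of 2, 5 and 2 and lower in 0.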
